A study of Mus musculus with 12 samples.

Results

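The T cell antigen receptor (TCR) was examined at the level of its signaling parts, in the messenger RNA of sorted CD4 and CD8 T cells. The parts were 9 genes chosen by symbol, and all 9 were among the 12809 genes listed for the 12 libraries. They encode the CD3δ, CD3ε and CD3γ chains (*Cd3d*, *Cd3e* and *Cd3g*), the ζ chain (*Cd247*), the Src-family kinases Lck and Fyn, the kinase ZAP-70 (*Zap70*), the adaptor LAT (*Lat*) and the phosphatase CD45 (*Ptprc*). All 9 passed the filter of at least 1 CPM (a read count scaled to library size, with a TMM factor for library composition) in at least 3 libraries, which left 11595 genes for testing.

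The TCR itself cannot signal, and it depends on the CD3 and ζ chains, whose cytoplasmic tails carry tyrosine motifs. Lck, which binds the tails of CD4 and CD8, phosphorylates these motifs once a coreceptor engages the same MHC molecule as the TCR, and CD45 keeps Lck available by removing its inhibitory phosphate. ZAP-70 then docks on the phosphorylated chains and phosphorylates LAT, on which the downstream signaling complex assembles, and CD4 is known to hold Lck better than CD8 does. FlipFlop mice put this machinery behind exchanged coreceptors, so the comparison asks whether its transcripts follow the coreceptor protein, the locus that encodes it, or neither.

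The 12 libraries came from LN T cells of female mice, with 3 libraries in each of 4 groups. B6 CD4 and B6 CD8 T cells were from C57BL/6 mice that the labels give as 10 weeks old. FlipFlop CD4 and FlipFlop CD8 T cells were from mice labeled as 14 weeks old, in which both copies of chromosome 6 carry *Cd8a* loci that encode CD4 proteins (*Cd8*CD4) and *Cd4* loci that encode CD8αβ.1 proteins (*Cd4*CD8). Age therefore changed with strain and the pair cannot be told apart, and the *Cd8*CD4 allele was first made in ES cells of a strain other than B6 whereas the *Cd4*CD8 allele was made in B6 ES cells. The labels do not say whether the 3 libraries of a group came from separate mice, so p-values measure the spread between libraries, which may be technical. B6 CD4 and FlipFlop CD8 T cells are called helper lineage and B6 CD8 and FlipFlop CD4 T cells cytotoxic lineage here, by the locus that encodes their coreceptor.

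The labels were checked first. *Zbtb7b*, which encodes the helper factor ThPOK, was at 196 ± 5.99 CPM (SD, n = 3) for B6 CD4, 168 ± 5.62 for FlipFlop CD8, 1.55 ± 0.416 for B6 CD8 and 2.29 ± 0.464 for FlipFlop CD4, and the level of *Cd4* was 42.2 ± 1.33 CPM for FlipFlop CD8 and 670 ± 43.6 for FlipFlop CD4. *Cd8a* followed the labels as well, at 145 ± 11.7 CPM for FlipFlop CD8 and 0.921 ± 0.0595 for FlipFlop CD4. *Cd8b1* was at 137 ± 12.9 CPM for FlipFlop CD8 and 1829 ± 169 for FlipFlop CD4, beside 1885 ± 43.2 for B6 CD8 and 23.8 ± 3.86 for B6 CD4. The altered *Cd8* allele is described as a changed *Cd8a*, so high *Cd8b1* in FlipFlop CD4 T cells is not a conflict with the labels. Depth was 26600000 to 33100000 reads on the listed genes per library, and the 9 genes rested on 5797 to 69087 reads each. The summed levels of 7 B cell markers were 536 to 687 CPM over all 12 libraries, but *Ighm* alone made 503 to 571 CPM of this as group means. Other markers were less even. *Cd79a* was at 18.2 CPM in B6 CD4 and 9.15 to 12.5 in the other groups. *Cd79b* was at 14.9 in B6 CD4 and 15.6 in FlipFlop CD8 against 31.4 in B6 CD8 and 25.5 in FlipFlop CD4. Markers of other T cell states differed between groups: 5 regulatory T cell genes summed to 809 to 966 CPM in FlipFlop CD8, 342 to 408 CPM in B6 CD4 and 59.5 to 67.1 CPM in cytotoxic-lineage libraries, and 4 NK cell genes to 558 to 611 CPM in B6 CD8, 341 to 357 CPM in FlipFlop CD4 and 16.3 to 86.3 CPM in helper-lineage libraries. *Nkg7* alone made 480 CPM of the NK cell sum in B6 CD8 and 295 in FlipFlop CD4 as group means. The NK cell genes did not all follow this order. *Klrb1c* was at 10.8 CPM in FlipFlop CD8 and 3.52 in B6 CD4 against 2.18 in B6 CD8 and 1.82 in FlipFlop CD4. *Gzma* was at 2.21 CPM in FlipFlop CD8 against 1.64 in FlipFlop CD4. Naive T cell genes (4) summed to 3160 to 3342 CPM in FlipFlop CD8 and 3867 to 4323 CPM in the other libraries, and 5 memory or effector genes to 818 to 1196 CPM in FlipFlop CD8, 759 to 838 CPM in B6 CD8 and 397 to 491 CPM in B6 CD4 and FlipFlop CD4 libraries. The memory or effector genes did not all follow this order. *Il2rb* (565 against 284 CPM as group means), *Ccl5* (102 against 15.0) and *Cxcr3* (86.4 against 32.6) were higher in B6 CD8 than B6 CD4. *Cd44* (46.9 against 81.8) and *S100a4* (2.96 against 42.1) were lower. Sums of 4 γδ T cell genes were 25.4 to 27.8 CPM in FlipFlop CD8, 11.5 to 16.6 CPM in B6 CD4 and 8.44 to 10.8 CPM in cytotoxic-lineage libraries, and those of 5 myeloid genes 15.8 to 30.9 CPM in helper-lineage and 7.03 to 20.7 CPM in cytotoxic-lineage libraries. The sums of 3 red blood cell genes were 14.2 to 27.4 CPM in B6 and 6.17 to 13.6 CPM in FlipFlop libraries, and no listed marker was at 0 in every library. Their part in the results was not tested, and in bulk RNA fewer cells of a kind and less RNA per cell cannot be told apart.

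B6 CD4 replicate 1 stood apart in a way that bears on these genes. Across the tested genes its values fell by 0.14 on the log2 scale for each doubling of exon length relative to the mean of all libraries, whereas this slope was -0.05 to 0.10 in the other 11 libraries. It held the highest value of the 12 libraries for *Cd3d*, *Cd3g*, *Cd247*, *Zap70* and *Lat*, and the lowest for *Ptprc*, which has by far the longest merged exons of the 9 genes. Calls of the 9 genes that rest on it are given with and without it.

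All 9 genes were well expressed in every library, and none differed by more than 1.34-fold in any comparison. *Ptprc* was highest, at 1150 to 2320 CPM, then *Lck* at 954 to 1129 CPM, and *Zap70* was lowest at 207 to 274 CPM. Levels of different genes can be compared only per length, and the order then depends on which length is used. Per kilobase of merged exons, *Cd3d* (285 to 413 CPM per kb as group means) and *Lck* (350 to 378) stood above *Cd3g* and *Lat* (160 to 207), and *Cd3e*, *Cd247*, *Zap70*, *Fyn* and *Ptprc* lay between 63.1 and 112 CPM per kb, in an order that differed between groups. Per kilobase of the longest principal transcript, a choice added after the values were seen, *Cd3g* was highest (510 to 662 CPM per kb) and *Lck* (469 to 507) was next, whereas *Cd3d* (320 to 463), *Lat* (371 to 458) and *Ptprc* (317 to 436) overlapped. The annotated exons of *Cd3g* span 3269 bases against 1023 in that transcript. *Fyn* (77.3 to 93.8) and *Zap70* (95.9 to 112) were lowest of the 9 by this measure.

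**Figure D1:**
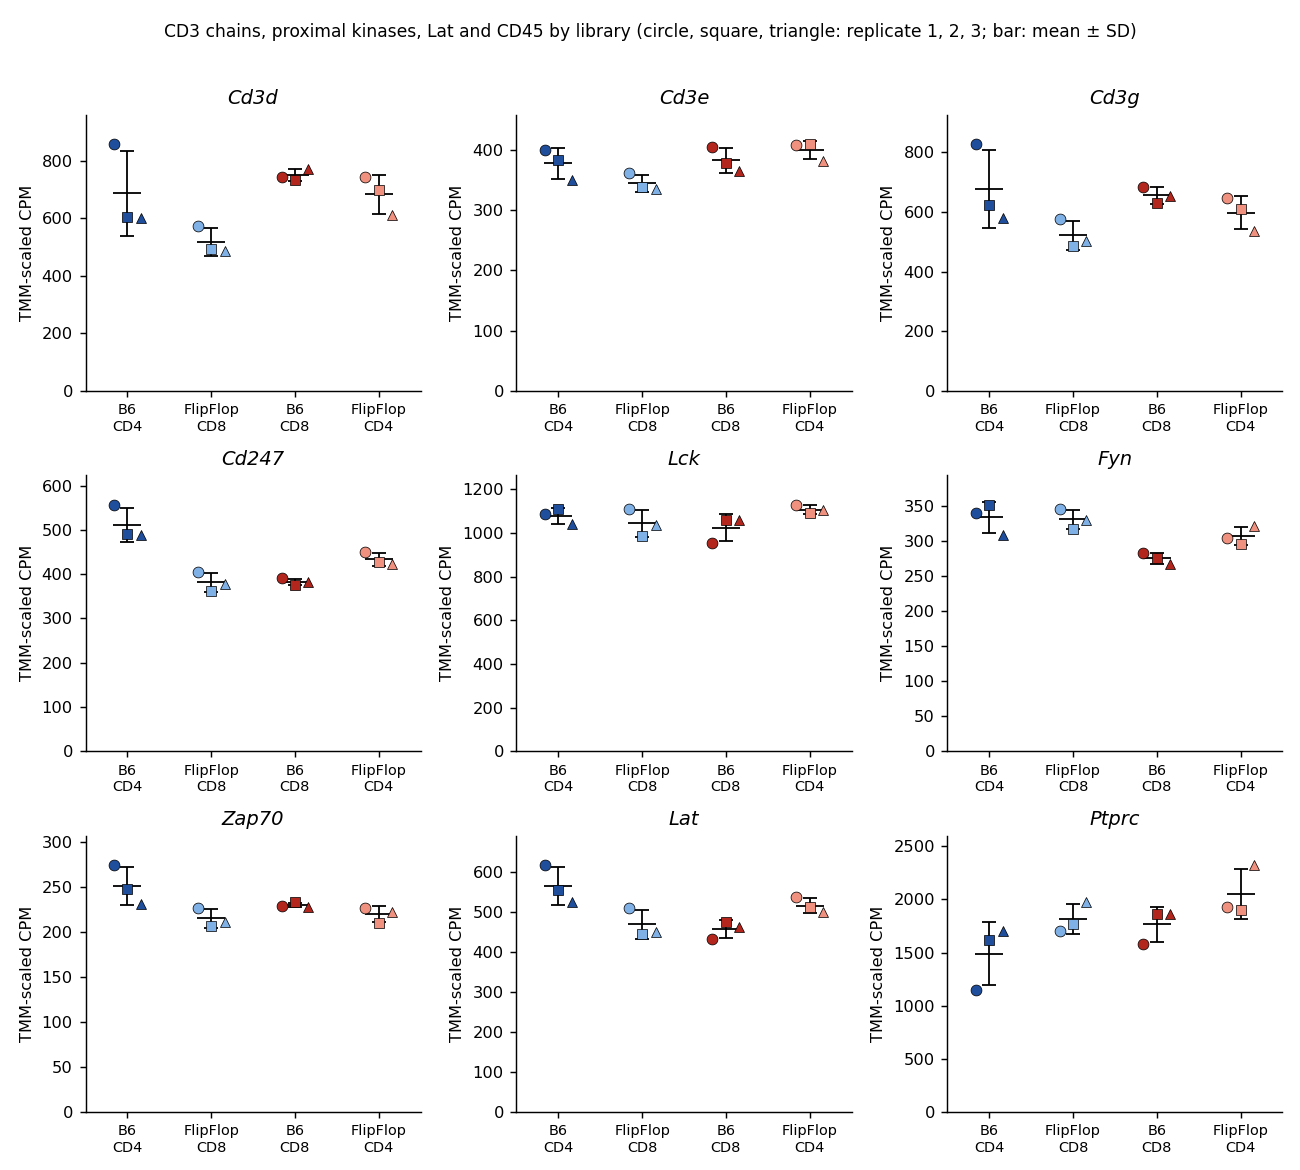
Each panel plots 1 gene in TMM-scaled CPM (y axis from 0) for the 12 libraries of the 4 groups, with a symbol per replicate and bars for the mean ± SD of 3 libraries. *Fyn* is lowest in B6 CD8 T cells (268 to 283 CPM), *Cd247* is highest in B6 CD4 T cells (488 to 556 CPM), *Lck* is level across groups, and B6 CD4 replicate 1 is the outlying circle for *Cd3d* (857 CPM) and *Ptprc* (1150 CPM).

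Between CD4 and CD8 T cells of B6 mice, 3 of the 9 genes differed, all higher in CD4 T cells: *Cd247*, *Lat* and *Fyn*. Over all genes, 25.4% were called in this comparison at an adjusted p under 0.05 (limma, Benjamini-Hochberg over all 11595 genes), so 3 of 9 was near the background. At an unadjusted p under 0.0001, the stricter of the p limits that the study names, and more than 5-fold, 1.55% of genes were called and none of the 9. Between FlipFlop CD4 and FlipFlop CD8 T cells, 2 of 9 were called against 31.3% of all genes, and both, *Cd3d* and *Cd3e*, were higher in CD4 T cells. Both calls were lost when either FlipFlop CD8 replicate 2 or 3 or FlipFlop CD4 replicate 1 or 2 was left out, with 0 of 9 called beside 24.5% to 25.3% of all genes. The median log2 difference of the 9 genes was 0.07 in the B6 and 0.17 in the FlipFlop comparison, beside 0.00 and 0.04 over all genes tested.

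The 4 groups were also combined into 3 effects. The lineage effect, helper minus cytotoxic, is the average of B6 CD4 and FlipFlop CD8 minus that of B6 CD8 and FlipFlop CD4 T cells, and it tests whether the CD4 minus CD8 difference changes between the strains. The coreceptor effect is CD4 minus CD8 averaged over both strains, and the strain effect is FlipFlop minus B6. In the lineage effect 2 of 9 genes were called against 39.3% of all genes, with *Fyn* higher and *Cd3d* lower in helper-lineage T cells. In the coreceptor effect 2 of 9 were called against 5.49%, with *Cd247* and *Lat* higher in CD4 T cells, and in the strain effect 3 of 9 against 31.2%, with *Cd3d*, *Cd3g* and *Zap70* lower in FlipFlop T cells. The strain effect takes the libraries as separate, although same-numbered FlipFlop CD4 and CD8 libraries deviated together (correlations of 0.44, 0.27 and 0.51). Its SEs and p-values, here and for single genes below, may thus be too small, and a block within strain cannot test it. Scaling changed which genes were called. Without the TMM factor the strain effect called *Lck*, *Fyn* and *Ptprc*, all higher in FlipFlop T cells, in place of the 3 lower genes, beside 34.5% of all genes. The lineage effect without that factor called *Cd247*, *Fyn*, *Zap70* and *Lat*, all higher in helper-lineage T cells, beside 41.0% of all genes. The median of all genes then shifted by 0.11 in the strain and 0.12 in the lineage effect. The medians of the 9 genes in these effects were -0.01, 0.10 and -0.05 on the log2 scale, beside -0.03, 0.01 and -0.01 over all genes.

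**Figure D2:**
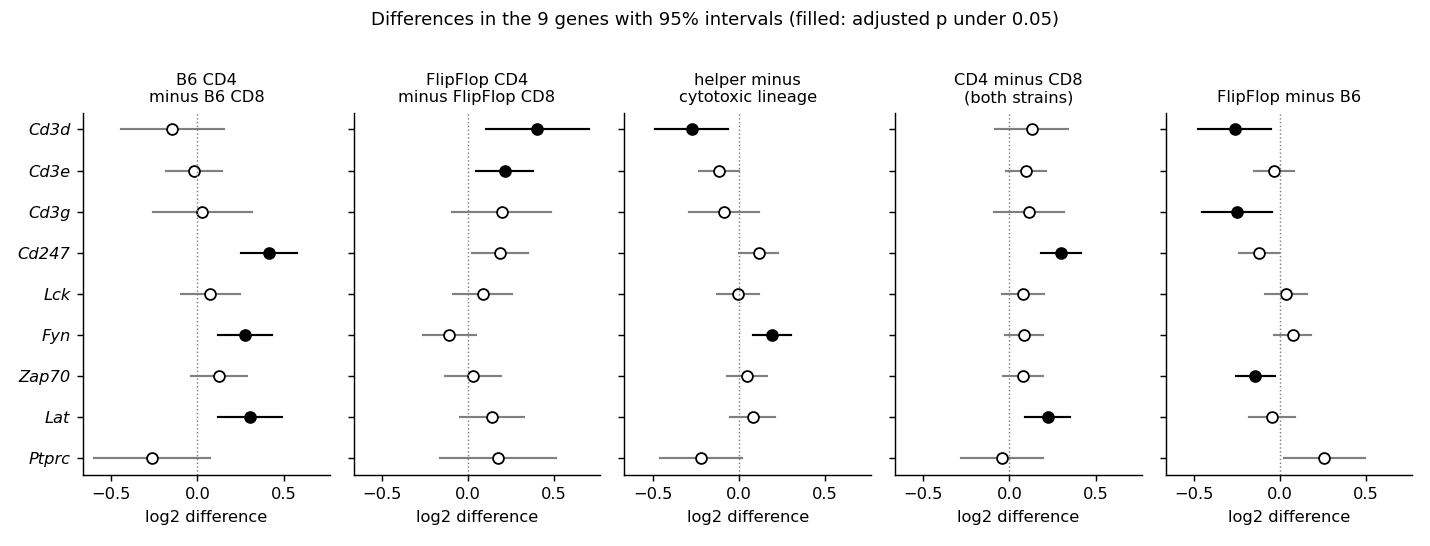
Log2 differences (x axis) of the 9 genes (rows) with 95% intervals in 5 comparisons, filled where the adjusted p was under 0.05. *Fyn* and *Cd3d* are filled on opposite sides of 0 in the helper minus cytotoxic panel, at 0.19 and -0.27, *Cd247* and *Lat* are filled in the CD4 minus CD8 panel, at 0.30 and 0.22, and *Lck* is open in all panels.

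*Cd3d* encodes CD3δ, which pairs with CD3ε in the receptor. B6 CD4 replicates 1, 2 and 3 had 857, 603 and 600 CPM of it and those of B6 CD8 had 742, 732 and 772. FlipFlop CD4 T cells had 744, 697 and 610 CPM and FlipFlop CD8 T cells 571, 493 and 486 CPM. FlipFlop CD8 libraries were thus all below those of each other group, whereas B6 CD4 overlapped B6 CD8 through its replicate 1 only. In either direction, 47.2% of all genes did not overlap between FlipFlop CD8 and FlipFlop CD4 libraries and 43.6% between FlipFlop CD8 and B6 CD4 libraries.

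The log2 difference of *Cd3d* between FlipFlop CD4 and FlipFlop CD8 T cells was 0.40 (SE 0.13, adjusted p = 0.0336), or 0.23 without the TMM factor (adjusted p = 0.140), and the same difference within B6 mice was -0.15 (SE 0.13, adjusted p = 0.475), or -0.32 without B6 CD4 replicate 1 (adjusted p = 0.0244). The lineage effect, which compares these, was -0.27 (SE 0.09, adjusted p = 0.0325). Without B6 CD4 replicate 1 it was -0.36 (adjusted p = 0.000607), but it passed in only 3 of the 12 fits that left out 1 library (adjusted p up to 0.0803), and without the TMM factor it was -0.15 (adjusted p = 0.139). FlipFlop CD8 against B6 CD4 T cells gave -0.39 (SE 0.13, adjusted p = 0.0432). This was -0.22 without B6 CD4 replicate 1 (adjusted p = 0.114) and -0.23 without the TMM factor (adjusted p = 0.131). FlipFlop CD4 against B6 CD8 T cells gave -0.14 (SE 0.13, adjusted p = 0.579). The strain effect of -0.26 (SE 0.09, adjusted p = 0.0474) became -0.15 without the TMM factor (adjusted p = 0.146) and -0.13 when each library's trend with exon length was removed (adjusted p = 0.120).

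*Cd3g* encodes CD3γ and lies beside *Cd3d*, in the opposite direction. The B6 CD4 libraries had 827, 624 and 579 CPM of it and the B6 CD8 libraries 684, 629 and 654, whereas FlipFlop CD4 libraries had 647, 610 and 536 CPM and FlipFlop CD8 libraries 578, 487 and 502. FlipFlop libraries overlapped B6 libraries in this gene but reached lower. Its strain effect was a log2 difference of -0.25 (SE 0.09, adjusted p = 0.0492), which was -0.17 without B6 CD4 replicate 1 (adjusted p = 0.0604) and -0.14 without the TMM factor (adjusted p = 0.177). FlipFlop CD8 against B6 CD4 T cells gave -0.36 (SE 0.12, adjusted p = 0.0492). This was -0.21 without B6 CD4 replicate 1 (adjusted p = 0.146) and -0.19 without the TMM factor (adjusted p = 0.180). Its lineage effect was -0.08 (SE 0.09, adjusted p = 0.504).

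*Cd3e* encodes CD3ε, the chain shared by the CD3δε and CD3γε pairs. It varied least of the CD3 chains, from 336 CPM in a FlipFlop CD8 library to 410 CPM in a FlipFlop CD4 library. FlipFlop CD4 T cells, at 400 ± 15.5 CPM (SD, n = 3), were above FlipFlop CD8 T cells, at 345 ± 14.1 CPM, with a log2 difference of 0.21 (SE 0.07, adjusted p = 0.0392), which was 0.04 without the TMM factor (adjusted p = 0.721). Its lineage effect of -0.12 (SE 0.05) did not pass (adjusted p = 0.0907), but did with the replicate number as a block within each strain (adjusted p = 0.0389) and without B6 CD4 replicate 1 (-0.14, adjusted p = 0.0309), and it was 0.01 without the TMM factor (adjusted p = 0.930).

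*Cd247* encodes the ζ chain, which carries most of the receptor's tyrosine motifs. B6 CD4 libraries had 556, 490 and 488 CPM and B6 CD8 libraries 391, 376 and 382. FlipFlop CD4 libraries had 450, 428 and 422 CPM, and those of FlipFlop CD8 404, 361 and 379. In each strain all CD4 libraries were above all CD8 libraries, where 37.8% (B6) and 47.2% (FlipFlop) of all genes did not overlap in either direction. The 6 CD4 libraries were also above all 6 CD8 libraries, where 0.612% of all genes did not overlap.

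The coreceptor effect of *Cd247* was a log2 difference of 0.30 (SE 0.05, adjusted p = 0.00458), that is 1.23-fold, and it passed in all 24 alternative fits, with values of 0.23 to 0.32. Of all genes, 5.49% were called in that effect. The B6 difference was 0.42 (SE 0.07, adjusted p = 0.000821) and the FlipFlop difference 0.19 (SE 0.07, adjusted p = 0.0672). The latter passed with the replicate number as a block within each strain (adjusted p = 0.0370) and without B6 CD4 replicate 1 (adjusted p = 0.0185), and was 0.01 without the TMM factor (adjusted p = 0.922). Its strain effect was -0.12 (SE 0.05, adjusted p = 0.0816). The lineage effect, 0.11 (SE 0.05), did not pass (adjusted p = 0.0907), so that a change of the CD4 minus CD8 difference between the strains was not shown, although it was 0.24 and passed without the TMM factor (adjusted p = 0.000709). FlipFlop CD8 T cells were below B6 CD4 T cells by a log2 difference of -0.42 (SE 0.07, adjusted p = 0.00154), a comparison that shares the B6 CD4 libraries with the B6 one. The exons of *Cd247* share 3007 bases, 56.4% of their merged length, with *Pou2f1* on the opposite strand, and the library kit does not mark strand, so reads from the shared part cannot be told apart. *Pou2f1*, which encodes the transcription factor Oct-1, was listed at 37.7 to 52.6 CPM as group means, with a coreceptor effect of -0.21 (SE 0.14, adjusted p = 0.462).

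*Lck* was called in no comparison. The 3 libraries of B6 CD4 had 1086, 1109 and 1040 CPM, of B6 CD8 954, 1059 and 1061, of FlipFlop CD4 1129, 1090 and 1104, and of FlipFlop CD8 1112, 988 and 1035. All 4 groups overlapped except that FlipFlop CD4 libraries lay above those of B6 CD8, where 32.4% of all genes did not overlap in either direction. The lineage effect was -0.01 on the log2 scale with a 95% interval of -0.13 to 0.12, and the coreceptor effect 0.08 with an interval of -0.04 to 0.20. Adjusted p-values were 0.948 and 0.447. Scaling touched this result. Without the TMM factor the strain effect went from 0.03 to 0.15 (adjusted p = 0.0325) and the lineage effect became 0.12 (adjusted p = 0.0670), or 0.12 when B6 CD4 replicate 1 was left out as well (adjusted p = 0.0399).

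*Fyn* encodes the other Src-family kinase of T cells, which associates with the CD3 and ζ chains rather than with the coreceptors. B6 CD4 libraries had 341, 352 and 309 CPM and B6 CD8 libraries 283, 276 and 268. In FlipFlop mice it measured 304, 296 and 322 CPM in CD4 and 345, 318 and 330 CPM in CD8 T cells. B6 CD4 libraries were all above B6 CD8 libraries, and in FlipFlop mice the order of the group means was the reverse, with 1 CD4 library inside the range of the CD8 libraries. Between the B6 groups 37.8% of all genes did not overlap, in either direction.

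The B6 difference of *Fyn* was 0.28 on the log2 scale (SE 0.07, adjusted p = 0.00873), 1.21-fold, and the FlipFlop difference -0.11 (SE 0.07, adjusted p = 0.258), or -0.28 without the TMM factor (adjusted p = 0.0117). The strain effect of 0.07 (adjusted p = 0.257) became 0.19 without that factor (adjusted p = 0.0198). The lineage effect, which tests the change between these differences, was 0.19 (SE 0.05, adjusted p = 0.00626). It passed in all 24 alternative fits, with values from 0.17 to 0.32, and without B6 CD4 replicate 1 it was 0.18 (adjusted p = 0.00643). The share of all genes called in the lineage effect was 39.3%, and with 1.14-fold *Fyn* moved by little more than the median absolute log2 difference of 0.16 over all genes. FlipFlop CD8 and B6 CD4 T cells did not differ detectably (log2 difference -0.01, 95% interval -0.17 to 0.14), and FlipFlop CD4 T cells measured 0.16 above B6 CD8 T cells (adjusted p = 0.188). In that last comparison 7.92% of all genes and none of the 9 were called by limma, 2 of the 9 had an unadjusted p under 0.05, and limma with voom weights also called 0.

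*Zap70* and *Lat* follow the CD3 chains in the cascade. For *Zap70*, B6 CD4 libraries had 274, 248 and 232 CPM against 227, 207 and 211 for FlipFlop CD8, and B6 CD8 libraries 228 to 233 CPM against 210 to 227 for FlipFlop CD4. All 6 FlipFlop libraries were below all 6 B6 libraries, by a narrow margin, as in 5.85% of all genes in either direction, where 31.2% of all genes were called. The strain effect was a log2 difference of -0.14 (SE 0.05, adjusted p = 0.0461), which passed in 2 of the 12 fits without 1 library (adjusted p up to 0.110), was -0.11 without B6 CD4 replicate 1 (adjusted p = 0.0561) and was -0.03 without the TMM factor (adjusted p = 0.613). Its lineage effect of 0.05 (adjusted p = 0.504) and B6 difference of 0.12 (adjusted p = 0.239) became 0.17 (adjusted p = 0.0102) and 0.19 (adjusted p = 0.0451) without that factor.

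For *Lat*, B6 CD4 libraries had 617, 555 and 525 CPM and B6 CD8 libraries 434, 477 and 463, while FlipFlop CD4 libraries had 537, 513 and 501 CPM and FlipFlop CD8 libraries 512, 445 and 452. CD4 libraries were above CD8 libraries in B6 mice, where 37.8% of all genes did not overlap in either direction. In FlipFlop mice CD4 and CD8 libraries overlapped through FlipFlop CD8 replicate 1. The B6 difference was 0.30 on the log2 scale (SE 0.08, adjusted p = 0.0149) and the coreceptor effect 0.22 (SE 0.06, adjusted p = 0.0432). The latter was 0.19 without B6 CD4 replicate 1 (adjusted p = 0.0528), 0.17 without the TMM factor (adjusted p = 0.0556) and passed in 2 of the 12 fits without 1 library (adjusted p up to 0.121). The B6 difference was lost in 1 of these 12 fits, without B6 CD8 replicate 1 (0.26, adjusted p = 0.0613). The lineage effect of *Lat*, 0.08 (adjusted p = 0.297), became 0.20 without the TMM factor (adjusted p = 0.00382). FlipFlop CD8 against B6 CD4 T cells gave -0.22 for *Zap70* (SE 0.07, adjusted p = 0.0369) and -0.27 for *Lat* (SE 0.08, adjusted p = 0.0291), and with *Cd3d*, *Cd3g* and *Cd247* these made 5 of the 9 genes called, against 27.6% of all genes. Both calls were lost without the TMM factor, at -0.05 for *Zap70* (adjusted p = 0.525) and -0.10 for *Lat* (adjusted p = 0.242). Without B6 CD4 replicate 1 only 1 of the 9, *Cd247* (-0.36, adjusted p = 0.00255), was called in this comparison, beside 18.2% of all genes. The same held without FlipFlop CD8 replicate 2 or 3, beside 14.6% and 14.3% of all genes.

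*Ptprc*, which encodes CD45, was called in none of the 7 comparisons as fitted, but was under some other settings. B6 CD4 libraries had 1150, 1618 and 1703 CPM, B6 CD8 libraries 1577, 1866 and 1859, FlipFlop CD4 libraries 1932, 1899 and 2320, and FlipFlop CD8 libraries 1700, 1771 and 1974. FlipFlop CD4 libraries were above all 6 B6 libraries, whereas FlipFlop CD8 libraries overlapped them. Between FlipFlop CD4 and B6 CD8 libraries 32.4% of all genes did not overlap, in either direction. The strain effect was 0.26 on the log2 scale (SE 0.10, adjusted p = 0.0749), 0.17 without B6 CD4 replicate 1 (adjusted p = 0.113), 0.37 without the TMM factor (adjusted p = 0.0276) and 0.00 once the trend with exon length was removed from each library. FlipFlop CD8 minus B6 CD4 T cells gave 0.30 (adjusted p = 0.134), 0.13 without B6 CD4 replicate 1 (adjusted p = 0.464) and 0.47 without the TMM factor (adjusted p = 0.0471). The lineage effect was -0.22 (SE 0.10, adjusted p = 0.117), with -0.13 without B6 CD4 replicate 1 (adjusted p = 0.192). It passed with the length trend removed (-0.19, adjusted p = 0.0306) and with a replicate block within each strain (adjusted p = 0.0139). The B6 difference was -0.26 (adjusted p = 0.228, or 0.0387 with that block) and -0.09 without B6 CD4 replicate 1 (adjusted p = 0.637).

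A ratio of 2 genes within a library does not depend on how the libraries were scaled. Of 6 ratios and 3 effects, 18 tests in all, 2 passed after Benjamini-Hochberg adjustment (exact permutation test within strain or coreceptor, two-sided, 400 regroupings, smallest possible p 0.005). There were 3.18, 3.15 and 3.36 *Lck* reads for each *Fyn* read for B6 CD4 and 3.22, 3.11 and 3.13 for FlipFlop CD8 libraries, against 3.38, 3.84 and 3.96 in B6 CD8 and 3.71, 3.68 and 3.43 in FlipFlop CD4 T cells. All 6 helper-lineage libraries were below all 6 cytotoxic-lineage libraries. The log2 ratio *Lck*/*Fyn* was 1.67 ± 0.0405 (SD, n = 6) in helper-lineage and 1.87 ± 0.0897 in cytotoxic-lineage libraries, a difference of -0.20 (exact p = 0.005, the smallest possible, adjusted p = 0.045), and its coreceptor and strain effects were -0.004 and -0.04 (adjusted p = 0.975 and 0.771). The call was lost when same-numbered FlipFlop CD4 and CD8 libraries were kept as pairs, which leaves 160 regroupings (exact p = 0.0125, the smallest possible, adjusted p = 0.050 over 12 tests).

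The other ratio that passed was *Cd3g*/*Cd3e* between strains. It was 1.40 to 1.60 in the 6 FlipFlop libraries and 1.62 to 2.06 in the 6 B6 libraries, with a log2 difference of -0.22 (exact p = 0.005, adjusted p = 0.045). This test takes the libraries as separate, and with same-numbered CD4 and CD8 libraries of a strain moved together the 20 regroupings left gave exact p = 0.1, the smallest possible, at which no call can be made. The strains did not overlap, and without B6 CD4 replicate 1, which held the value of 2.06, the difference was -0.17 (exact p = 0.01, adjusted p = 0.036). Leaving out 1 library in turn, *Lck*/*Fyn* passed in 7 of 12 and *Cd3g*/*Cd3e* in 8 of 12 cases, with adjusted p-values up to 0.090 and fewer regroupings to draw on. *Lat*/*Zap70* had a coreceptor effect of 0.14 (exact p = 0.01, adjusted p = 0.060), and *Cd247*/*Cd3e* a lineage effect of 0.23 (exact p = 0.025, adjusted p = 0.090), so neither passed. No *Ptprc*/*Lck* or *Cd3d*/*Cd3e* effect passed (adjusted p from 0.135 up). Leaving out 1 library, *Lat*/*Zap70* passed in 4 of 12 cases in the coreceptor and 2 of 12 in the strain effect, *Cd247*/*Cd3e* in 1 of 12 in the lineage effect, and *Cd3d*/*Cd3e* in 1 of 12 in the lineage effect, which went from -0.16 to -0.24 without B6 CD4 replicate 1 (exact p = 0.005, adjusted p = 0.036).

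All 36 pairs of the 9 genes were then listed without a test, a step chosen after the data were seen. Helper-lineage and cytotoxic-lineage libraries did not overlap in 3 pairs: *Lck*/*Fyn*, *Cd3e*/*Fyn* and *Cd3d*/*Cd3g*. Of single genes, 16.9% did not overlap between lineages, 0.612% between CD4 and CD8 and 5.85% between strains. The pairs that did not overlap were 3, 1 and 2 of 36 in that order, and only the 1 of 36 between CD4 and CD8 was above its share. These shares are of single genes, those of ratios of other genes were not computed, and the 36 pairs share genes. The *Cd3d*/*Cd3g* ratio was 0.97 to 1.04 in the 6 helper-lineage and 1.08 to 1.18 in the 6 cytotoxic-lineage libraries. This held for B6 CD4 replicate 1 too, whose ratio of 1.04 was that of B6 CD4 replicate 3. CD4 and CD8 libraries did not overlap in *Cd247*/*Zap70* (1.90 to 2.11 against 1.61 to 1.79), and the strains did not overlap in *Cd3e*/*Cd3g* and *Lck*/*Zap70*.

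**Figure D3:**
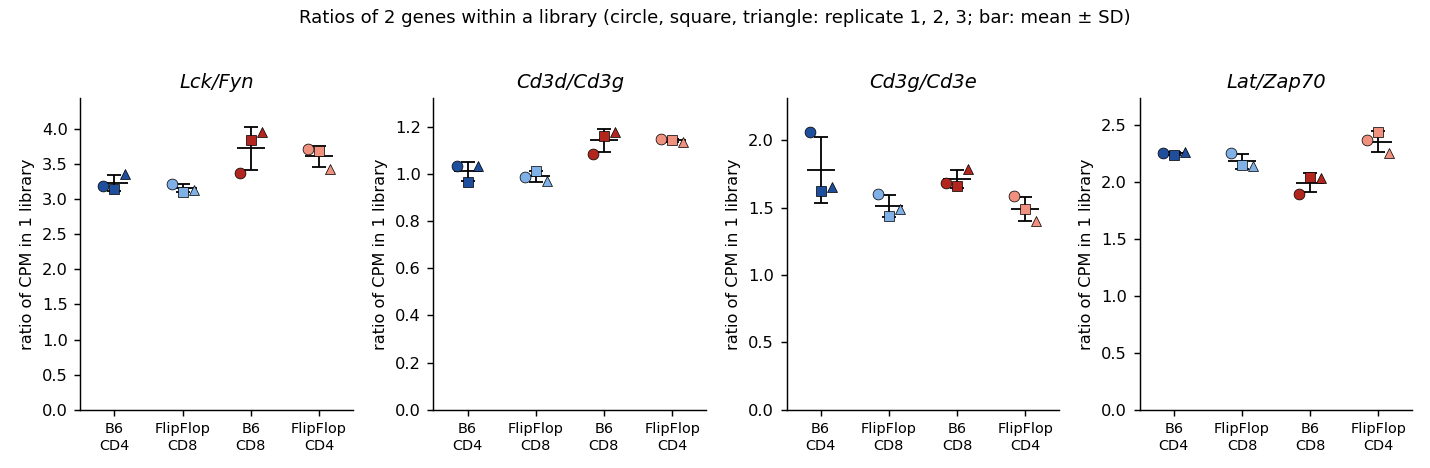
Ratios of CPM of 2 genes within each library (y axis from 0), with a symbol per replicate and bars for the mean ± SD of 3 libraries in each group. *Lck*/*Fyn* is lower (3.11 to 3.36) in B6 CD4 and FlipFlop CD8 than in the other groups (3.38 to 3.96), *Cd3d*/*Cd3g* splits the groups the same way (0.97 to 1.04 against 1.08 to 1.18), and *Cd3g*/*Cd3e* is lower in both FlipFlop groups.

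The 3 CD3 genes lie together on chromosome 9 (GRCm38), *Cd3g* from 44969572 to 44980431 on the minus strand, *Cd3d* from 44981786 to 44987339 on the plus strand and *Cd3e* from 44998740 to 45009627 on the minus strand. The starts of *Cd3g* and *Cd3d* are 1355 bases apart and point away from each other. The windows from 250 bases before to 50 bases after these starts (RefSeq, GRCm38.p6) are shown for this divergent pair, whose ratio is described above. Capitals mark TGTGGT (a core of RUNX sites) and AGGAAG (a core of ETS sites), searched on both strands and present in 16.8% and 35.4% of 32851 such windows.
*Cd3g*, chr9:44980382-44980681, minus strand: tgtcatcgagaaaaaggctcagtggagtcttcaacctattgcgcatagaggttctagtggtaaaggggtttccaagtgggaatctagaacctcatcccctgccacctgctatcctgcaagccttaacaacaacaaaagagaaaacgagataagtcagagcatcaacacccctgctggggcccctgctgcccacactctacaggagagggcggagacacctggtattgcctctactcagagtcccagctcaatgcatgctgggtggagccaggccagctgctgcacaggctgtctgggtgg
*Cd3d*, chr9:44981536-44981835, plus strand: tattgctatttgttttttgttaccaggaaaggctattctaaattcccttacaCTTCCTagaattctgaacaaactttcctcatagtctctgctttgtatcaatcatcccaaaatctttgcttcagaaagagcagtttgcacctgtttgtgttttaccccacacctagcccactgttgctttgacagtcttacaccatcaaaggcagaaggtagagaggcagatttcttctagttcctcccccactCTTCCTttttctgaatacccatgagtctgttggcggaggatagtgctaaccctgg
The *Cd3d* window holds 2 matches to AGGAAG and the *Cd3g* window none to either motif. No match says only that these letters are absent from the window. The 14 other tested genes that start within 500 kb of the 3 genes moved both ways: in the lineage effect, which called 39.3% of all genes, 5 were higher and 4 lower in helper-lineage T cells, among them *Il10ra* (log2 difference 1.13) and *Jaml* (-2.39).

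*Lck* lies on chromosome 4 from 129548344 to 129573641 on the minus strand and *Fyn* on chromosome 10 from 39368855 to 39565381 on the plus strand. Their start windows are shown, with the same capitals, for the pair of kinases whose ratio was tested. RefSeq has 2 starts for *Lck*.
*Lck*, outer start, chr4:129573592-129573891, minus strand: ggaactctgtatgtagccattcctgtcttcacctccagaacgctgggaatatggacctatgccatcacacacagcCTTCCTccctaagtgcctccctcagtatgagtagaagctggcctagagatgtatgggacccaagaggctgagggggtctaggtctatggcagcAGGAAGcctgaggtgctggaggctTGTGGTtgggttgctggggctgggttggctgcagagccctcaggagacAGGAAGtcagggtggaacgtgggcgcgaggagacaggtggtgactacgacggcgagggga
*Lck*, inner start, chr4:129558323-129558622, minus strand: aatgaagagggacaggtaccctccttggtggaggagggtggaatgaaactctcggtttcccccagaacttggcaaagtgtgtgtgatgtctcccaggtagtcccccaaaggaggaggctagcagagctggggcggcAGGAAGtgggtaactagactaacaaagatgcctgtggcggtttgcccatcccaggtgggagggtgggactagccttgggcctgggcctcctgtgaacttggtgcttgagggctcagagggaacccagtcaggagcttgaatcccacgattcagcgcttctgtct
*Fyn*, chr10:39369549-39369848, plus strand: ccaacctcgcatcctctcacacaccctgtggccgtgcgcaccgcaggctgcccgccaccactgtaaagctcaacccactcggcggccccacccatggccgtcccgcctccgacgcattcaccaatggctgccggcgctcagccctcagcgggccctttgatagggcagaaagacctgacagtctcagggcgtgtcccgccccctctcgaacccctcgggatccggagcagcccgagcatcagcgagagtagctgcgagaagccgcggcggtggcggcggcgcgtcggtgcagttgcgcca
The outer *Lck* window holds 1 match to TGTGGT and 3 to AGGAAG and the inner window 1 to AGGAAG, and the *Fyn* window holds neither. *Fyn* begins in sequence of 69.0% GC with 31 CG pairs, against medians of 52.7% and 7 over all windows. Over the 13 windows of the 9 genes, 3 held TGTGGT, 10 held AGGAAG and all 13 held CANNTG (an E-box), which 72.3% of all windows hold. The other genes are *Cd247* on chromosome 1 from 165788681 to 165877277, *Zap70* on chromosome 1 from 36761798 to 36782818, *Ptprc* on chromosome 1 from 138062861 to 138175708 and *Lat* on chromosome 7 from 126363824 to 126369570.

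Around these 9 genes stand regulators of TCR signaling, taken as lists chosen for their roles. Among 20 positive regulators and adaptors, the lineage effect was higher in helper-lineage T cells for 5 and lower for 7, and among 20 negative regulators it was higher for 7 and lower for 4, against 39.3% of all genes called. The medians over these lists were -0.02 and 0.08 on the log2 scale. *Trat1*, which encodes an adaptor bound to the TCR–ζ complex, was higher by 1.87 on the log2 scale (SE 0.11, adjusted p = 5.40e-08), *Cd28*, the costimulatory receptor, by 1.29 (SE 0.10, adjusted p = 7.86e-07) and *Unc119*, an activator of Lck and Fyn, by 0.91 (SE 0.09, adjusted p = 4.15e-06). Of these, *Trat1* had a mean of 135 ± 32.9 CPM (SD, n = 3) for B6 CD4 and 133 ± 8.23 for FlipFlop CD8 against 33.0 ± 5.98 for B6 CD8 and 39.6 ± 2.65 for FlipFlop CD4.

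Among the negative regulators, *Ptprj*, a receptor phosphatase that acts on Src kinases, was higher in helper-lineage T cells by 1.99 on the log2 scale (SE 0.17, adjusted p = 1.06e-06), and *Sla2*, an adaptor that lowers TCR levels, was lower by a log2 difference of -0.78 (SE 0.06, adjusted p = 7.13e-07). *Cd5*, a surface inhibitor of TCR signaling, was at 518 ± 57.3 CPM (SD, n = 3) for B6 CD4, 355 ± 5.91 for FlipFlop CD8, 214 ± 13.5 for B6 CD8 and 217 ± 4.72 for FlipFlop CD4. Its lineage effect was 0.99 (SE 0.06, adjusted p = 3.75e-08) and its coreceptor effect 0.28 (SE 0.06, adjusted p = 0.0124). In CD5 mRNA the lineages thus stood apart, the helper-lineage groups also differed from each other, and FlipFlop CD4 and B6 CD8 T cells did not differ detectably (adjusted p = 0.890).

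The coreceptor effect, which called 5.49% of all genes, was called for 1 of the 20 positive regulators, the Tec-family kinase gene *Txk* (log2 difference 0.18, SE 0.05, adjusted p = 0.0476). *Txk* was higher in CD4 than CD8 T cells only in FlipFlop mice, at 99.8 against 64.5 CPM as group means. In B6 mice *Txk* was lower in CD4 than CD8 T cells, at 82.1 against 98.9 CPM. The coreceptor effect was also called for 3 of the 20 negative regulators. Of these, *Cd5* is given above and *Sla*, the relative of *Sla2*, was lower in CD4 T cells (-0.21, SE 0.06, adjusted p = 0.0476). The strain effect was called for 3 positive regulators in each direction and for 7 negative regulators, 1 higher and 6 lower in FlipFlop T cells, against 31.2% of all genes. *Unc119* was higher (0.28, SE 0.09, adjusted p = 0.0330), and the adaptor gene *Skap1* (-0.27, SE 0.07, adjusted p = 0.0177), *Cd6*, a relative of *Cd5* (-0.30, SE 0.06, adjusted p = 0.00304), and *Sla2* (-0.27, SE 0.06, adjusted p = 0.00827) were lower.

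*Trac* encodes the constant region of the TCR α chain. It was at 949 ± 108 CPM (SD, n = 3) for B6 CD4, 659 ± 4.19 for B6 CD8, 692 ± 16.4 for FlipFlop CD4 and 686 ± 59.2 for FlipFlop CD8, with a coreceptor effect of 0.27 (SE 0.06, adjusted p = 0.0273), a lineage effect of 0.25 (SE 0.06, adjusted p = 0.00629) and a strain effect of -0.20 (SE 0.06, adjusted p = 0.0316). Of the 3 TCR constant genes it was the one called in each of these effects. B6 CD4 T cells were thus highest in *Trac*, and the other 3 groups lay within 659 to 692 CPM as means.

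Kinases and adaptors that other blood cells use in place of the T cell members were low. Of 9 such genes 7 were tested, and in the lineage effect 4 were higher and 1 lower in helper-lineage T cells, against 39.3% of all genes called. *Src* was higher by 2.92 on the log2 scale (SE 0.13, adjusted p = 2.94e-09), with 4.71 ± 1.04 CPM (SD, n = 3) for B6 CD4 and 9.33 ± 1.54 for FlipFlop CD8 against 0.386 ± 0.0725 for B6 CD8 and 0.497 ± 0.121 for FlipFlop CD4. *Src*, the founding member of the Lck and Fyn family, also had a strain effect of 0.55 (SE 0.13, adjusted p = 0.00818), but at its highest it remained far below *Fyn*. *Lyn*, the main Src-family kinase of B cells (0.71, SE 0.14, adjusted p = 0.00147), and *Lat2*, the LAT relative of B and mast cells (0.68, SE 0.13, adjusted p = 0.00126), were at 0.462 to 3.37 CPM as group means, in libraries that held B cell markers.

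**Figure D4:**
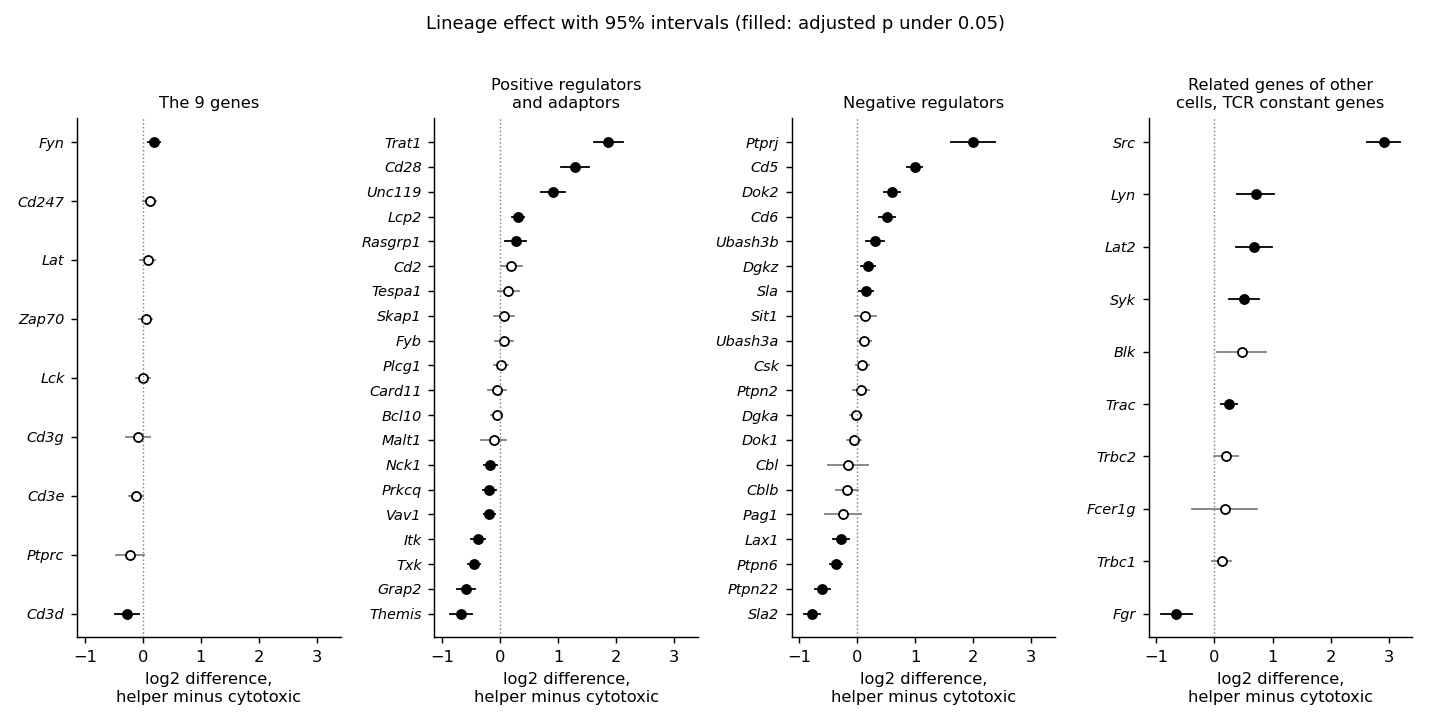
Log2 differences between helper-lineage and cytotoxic-lineage T cells (x axis) with 95% intervals for the 9 genes and the lists of related genes (rows), filled where the adjusted p was under 0.05. The 9 genes lie between -0.27 (*Cd3d*) and 0.19 (*Fyn*), whereas the regulators reach -0.78 (*Sla2*) and 1.99 (*Ptprj*) and *Src* 2.92.

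For each of the 9 genes, the 3 genes with the most similar profile were found among the tested genes averaging at least 10 CPM, by the root mean square difference of centered log2 values over the 12 libraries. For *Cd3d* they were *2410015M20Rik*, *Banf1* and *Naca* (0.05 in each case, where the gene's own spread was 0.25). For *Cd247* they were *Aes*, *Ube2r2* and *Limd2* (0.06 to 0.08) and for *Fyn* *Naa35*, *Zfp143* and *AU040320* (0.06). None of the 9 genes was among the 3 nearest of another.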

How the data were processed

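RNA of sorted LN T cells gave 12 libraries. The authors extracted it with RNeasy Plus Mini, made cDNA with a SMARTer low-input kit, which does not mark strand, and sequenced paired ends. The methods name STAR with mm10, whereas the submitters' processing notes name Trimmomatic and TopHat, and the counting program, annotation and filter on low values are not given in the sources used here. The deposited values are a normalized signal, CPM with the authors' TMM factor, in 1 table of 12809 genes, and 0 columns were left unused. Its steps are hundredths of 1 read, and 85.6% to 87.0% of values under 100 CPM lay within 0.02 of a whole number of reads, so a count model was not the main test and voom weights on these reads were an added alternative. A level of 3 reads is 0.0857 to 0.120 CPM, and this covers counting error only.

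The 11595 genes that reached 1 CPM in 3 or more libraries were fitted as log2(CPM + 0.5) with limma 3.58.1 (lmFit and eBayes with trend) in R 4.3.3, with all 12 libraries, 1 mean per group and 8 residual degrees of freedom. The limma p-values were adjusted by Benjamini-Hochberg across the 11595 genes, called under 0.05, and the log2(CPM + 0.5) scale understates changes of low genes. Ratios were tested by exact permutation in python 3.11.15 with scipy 1.17.1. Gene positions are from GENCODE M21 (GRCm38), to which all 12809 identifiers matched, and promoter windows from RefSeq (GRCm38.p6). The fit and the permutation test were tested on simulated data. Figures used matplotlib 3.10.9.

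The 9 genes, the gene lists and the tests were chosen with earlier results of these data known. Beyond the 9 genes, the text names from each list the 3 called genes with the largest lineage effect and the 2 with the largest coreceptor and strain effects, *Cd5*, the label checks, the 3 most similar genes and genes within 500 kb of the CD3 cluster. *Pou2f1*, *Il10ra* and *Jaml* were picked from the last of these or for overlap after their values were seen. Alternatives were pseudocounts of 0.1 and 1, other filters and scalings, no trend, fits of 6 libraries, replicate blocks, stricter limits of p and fold, voom weights, removal of length trends, and each library left out.

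The replicate numbers were checked by correlating deviations from group means. Same-numbered FlipFlop CD4 and CD8 libraries correlated at 0.44, 0.27 and 0.51, so by the rule of over 0.1 in every pair these numbers pair them, whereas B6 libraries correlated at 0.18, 0.09 and 0.35. No source says what a number stands for. Values blocked within strain are given where they change a call.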

Additional observations from a re-analysis of the deposited data

Results flagged for a closer look

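The lineage effect tests whether the CD4 minus CD8 difference changes between B6 and FlipFlop mice, and the results below are listed because it passed that test. Among the 9 genes these were *Cd3d* at a log2 difference of -0.27 and *Fyn* at 0.19, and the log2 ratio *Lck*/*Fyn* changed by -0.20, which did not pass with paired libraries. Among the related genes named, *Trat1* had 1.87, *Cd28* 1.29, *Unc119* 0.91, *Ptprj* 1.99, *Cd5* 0.99, *Sla2* -0.78, *Src* 2.92, *Lyn* 0.71, *Lat2* 0.68 and *Trac* 0.25. With 3 libraries per group, single libraries were not tested as outliers.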

How the results depend on the processing

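*Cd247* in the coreceptor effect and *Fyn* in the lineage effect passed in all 24 alternatives run for them. Counts of the 9 genes were less stable, and why they changed between settings was not tested. At an unadjusted p under 0.0001 and more than 5-fold, 0 of 9 were called in each of the 7 comparisons, and genes called were 180 (B6), 250 (FlipFlop), 55 (FlipFlop CD4 minus B6 CD8), 47 (FlipFlop CD8 minus B6 CD4), 187 (lineage), 2 (coreceptor) and 40 (strain). Without the TMM factor the counts of the 9 were 1 for FlipFlop (*Fyn*, lower in CD4, in place of *Cd3d* and *Cd3e*), 1 for FlipFlop CD4 minus B6 CD8 (*Cd247*), 2 for FlipFlop CD8 minus B6 CD4 (*Cd247* lower, *Ptprc* higher), 4 for lineage, all higher, and 1 for coreceptor (*Cd247*), and the strain effect had 3 higher (*Lck*, *Fyn* and *Ptprc*) in place of 3 lower. All genes called were then 32.4%, 7.69%, 29.5%, 41.0%, 6.12% and 34.5% in the order named. Median-of-ratios scaling and eBayes without a trend each gave 1 for FlipFlop, 2 for FlipFlop CD8 minus B6 CD4, 1 for coreceptor and 0 for strain. Of all genes, the former called 30.65%, 26.3%, 5.55% and 30.4% and the latter 30.3%, 25.3%, 5.88% and 29.1% in that order. With the length trend removed the counts of the 9 were 1, 1 and 1 for FlipFlop, FlipFlop CD4 minus B6 CD8 and FlipFlop CD8 minus B6 CD4, and 0 for strain. These stood beside 32.5%, 9.46%, 23.0% and 27.4% of all genes. Without both B6 CD4 replicate 1 and the TMM factor, FlipFlop CD4 minus B6 CD8 had 2 of the 9, FlipFlop CD8 minus B6 CD4 1, lineage 6 and coreceptor 1. These stood beside 13.0% (1512 genes), 20.45%, 48.1% and 5.62% of all genes. The lineage effect of *Lck* then turned to 0.12. A fit of 6 libraries gave 1 of the 9 and 1500 genes (12.9%) for FlipFlop CD8 minus B6 CD4. In the coreceptor effect, genes averaging at least 5 CPM gave 1 of 9 and 301 genes (3.27%), and voom weights 1 of 9 and 412 genes (3.55%). Permuting all 12 labels let *Cd247*/*Cd3e* in the lineage effect (0.23, adjusted p = 0.0487) and *Lat*/*Zap70* in the coreceptor effect (0.14, adjusted p = 0.0390) pass by the exact permutation test.

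With the replicate number as a block across both strains, which the pairing check does not bear out, 5 of the 9 were called in the lineage and 5 in the strain effect, beside 42.5% and 37.0% of all genes. With a block within strain 4 were called in the lineage effect, beside 44.5% of all genes. The block across both strains also gave 6 of the 9 for FlipFlop CD8 minus B6 CD4, with *Ptprc* added as higher, and 3 for FlipFlop, beside 34.7% and 34.6% of all genes. Of the calls that each block could test, none of the 9 genes lost one. The block within strain cannot test the strain effect or comparisons between strains. For the ratio *Lck*/*Fyn*, whose lineage effect of -0.20 does not change with pairing, the exact permutation test gave an adjusted p of 0.050 with pairs in FlipFlop mice and 0.125 with pairs in both strains. With 64 regroupings the latter cannot give an unadjusted p below 0.0312, and *Cd3g*/*Cd3e*, at -0.22 between strains, had an adjusted p of 0.15 over 6 tests with pairs moved together. These paired tests were added after the data were seen.

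Leaving out 1 library in turn, the 9 genes gave 0 to 3 calls for FlipFlop, 1 to 5 for FlipFlop CD8 minus B6 CD4, 1 to 3 for lineage, 1 to 2 for coreceptor and 0 to 4 for strain. The share of all genes called in these fits was 24.5% to 38.1%, 14.3% to 32.35%, 34.6% to 45.1%, 3.42% to 5.21% and 21.4% to 34.6% in that order. Genes called were 515 to 1566 for FlipFlop CD4 minus B6 CD8, 1654 to 3751 for FlipFlop CD8 minus B6 CD4 and 396 to 604 for coreceptor. In the lineage effect the log2 ratios were -0.22 to -0.18 for *Lck*/*Fyn*, -0.24 to -0.12 for *Cd3d*/*Cd3e*, -0.0348 to 0.0693 for *Cd3g*/*Cd3e*, 0.19 to 0.27 for *Cd247*/*Cd3e* and -0.00398 to 0.0689 for *Lat*/*Zap70*. In the coreceptor effect they were -0.0318 to 0.038 for *Lck*/*Fyn*, -0.0268 to 0.0927 for *Cd3d*/*Cd3e*, -0.0546 to 0.0568 for *Cd3g*/*Cd3e* and 0.12 to 0.17 for *Lat*/*Zap70*, and in the strain effect -0.24 to -0.17 for *Cd3g*/*Cd3e* and 0.0650 to 0.117 for *Lat*/*Zap70*.

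Without the TMM factor the median of all genes shifted by -0.17 (FlipFlop), 0.16 (FlipFlop CD8 minus B6 CD4), 0.12 (lineage) and 0.11 (strain) on the log2 scale. The share of calls that were higher went from 57.3% to 69.7% (B6), 49.0% to 20.8% (FlipFlop), 47.8% to 83.9% (FlipFlop CD8 minus B6 CD4), 50.6% to 75.6% (lineage), 31.1% to 16.2% (coreceptor) and 50.5% to 81.1% (strain).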
